A study of Mus musculus with 8 samples.

Results

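The genes of cholesterol and fatty acid synthesis were examined in single nuclei from the ventricular-subventricular zone (V-SVZ), the neural stem cell niche beside the lateral ventricles of the mouse brain. Members were the genes whose symbol stood on a list of 32 synthesis genes and their regulators. The list was chosen by function, but with earlier results of these data known. Of its genes 32 of 32 were found among the 32285 genes of the count matrices. The libraries came from 8 mice at postnatal day 90, with 1 library per mouse, 4 Tsc2 wt/wt and 4 Tsc2 mut/mut. All mice carried a Rosa26 CAG-tdTomato reporter (RFP), and the mut/mut mice carried the conditional Tsc2tm1.1Mjg/J allele, which is inactivated by CRE. The study used both electroporated CAG-CRE plasmid and tamoxifen with a Nestin-CRE-ERT2 transgene to recombine these alleles, and which of them was used for the sequenced mice is not given in the sources used here. From each mouse 100000 tdTomato-positive nuclei were sorted, so reporter-negative cells were meant to be left out, and the sort does not show that both Tsc2 copies were lost in each nucleus. RNA was captured at its 3′ end in droplets, each molecule was tagged with a unique molecular identifier (UMI), and the comparisons asked where in the niche these genes were expressed and whether their levels differed between the genotypes.

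Cells build cholesterol from acetyl-CoA, first through mevalonate and isoprenoids to squalene and then through a chain of sterol intermediates, and they build fatty acids from the same acetyl-CoA through malonyl-CoA. Both pathways are driven by the SREBP transcription factors (Srebf1 and Srebf2), which are escorted from the endoplasmic reticulum by SCAP and held there by the INSIG proteins when sterols are plentiful. In the adult brain astrocytes are known as a main source of cholesterol for neurons, oligodendrocytes need large amounts of both lipids for myelin, and mTORC1, the kinase that the TSC1-TSC2 complex restrains, is known to promote SREBP activity.

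Of the barcodes in the 8 libraries, 37881 had at least 300 genes. Only 3470 of these (9.16%) had under 20% of their UMIs from mitochondrial genes and are called nucleus-like here, and the other 34411 are called mitochondria-rich. Near this limit 1036 barcodes had a mitochondrial share between 15% and 25%. The libraries held 11182335 to 36773832 UMIs, and 166 kept barcodes occurred in more than 1 library. Nucleus-like barcodes were gated on markers into 1177 neural stem cell (NSC)/astrocyte-like, 535 oligodendrocyte-like, 467 microglia-like, 337 choroid plexus-like and 224 ependymal-like nuclei, no member was a gating marker, and 567 stayed ungated. The fourth Tsc2 mut/mut library stood apart, with 124 of its 199 nucleus-like barcodes choroid plexus-like and 5 NSC/astrocyte-like. Each class was therefore compared over the mice with at least 10 of its nuclei. Tsc2 itself was listed at 12.2 to 16.2 CPM (UMIs per 1000000 UMIs) in the nucleus-like barcodes of the wt/wt mice and at 9.39 to 21.7 in the mut/mut mice, so the groups overlapped, and reads from the 3′ end do not show whether the deleted part was present.

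Many, but not all, of the sterol synthesis genes that could be tested were higher in the NSC/astrocyte-like nuclei, and so was Acss2, an acetyl-CoA synthetase. Of the 27 members with enough counts for the test, 18 were higher in NSC/astrocyte-like nuclei than in the other nucleus-like barcodes of the same 7 mice and none was lower (edgeR quasi-likelihood test with mouse as a block, adjusted p under 0.05 over all 8888 genes tested). The background was that 27.4% of all genes tested were called higher and 34.1% lower. The median member stood at a log2 fold change of 0.86 and the median of all genes at -0.05. The median mitochondrial share was 2.30% to 7.81% in the NSC/astrocyte-like nuclei and 5.93% to 11.75% in the others. It was lower in the NSC/astrocyte-like nuclei of each mouse compared, and its part in these values was not tested. A gene that passed the filter only through its high level in NSC/astrocyte-like nuclei had to differ, so the count describes the genes and is not a test of them as a set. The same limit holds for the counts in the classes below, where a gene could also pass only through its level in the other nuclei. In what follows a level is in CPM, the UMIs of a gene in a class of 1 mouse scaled to a sum of 1000000, and a log2 fold change is on the scale of the TMM factors.

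**Figure D1:**
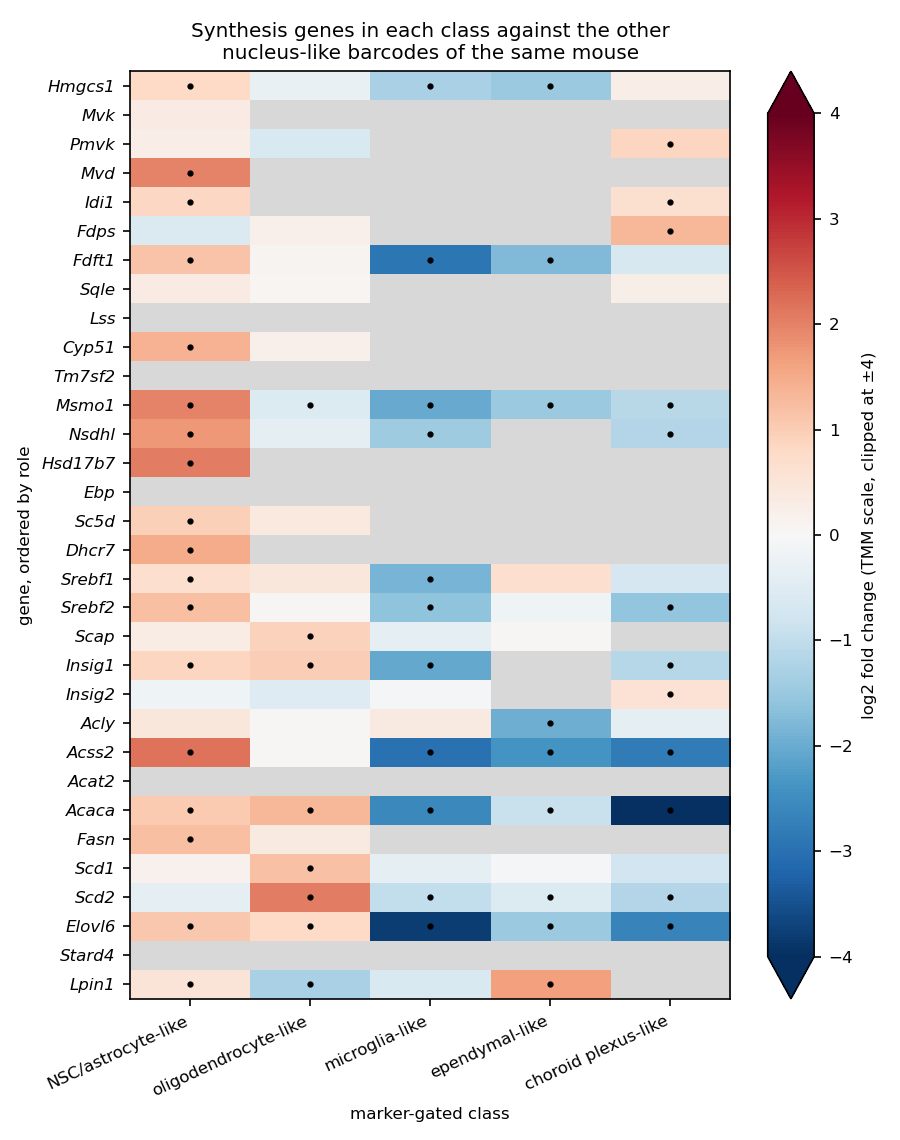
Log2 fold change of each synthesis gene (rows, ordered by role) in each marker-gated class (columns) against the other nucleus-like barcodes of the same mice; dots mark adjusted p under 0.05 grey marks genes with too few counts, and the colours stop at 4 in both directions. The NSC/astrocyte-like column holds 18 dots, all for higher levels, and the microglia-like column 11 dots, all for lower levels.

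Several of the late steps from lanosterol to cholesterol showed wide gaps. Msmo1, the sterol C4-methyl oxidase, ranged from 118.7 to 255.1 CPM in NSC/astrocyte-like nuclei, with a median of 179.9, and from 30.6 to 63.4 in the other nuclei, with a median of 47.1. The ranges of the 7 mice did not overlap, and the log2 fold change was 1.97 ± 0.18 (SE, adjusted p = 5.84e-07, edgeR). Nsdhl, the dehydrogenase that follows it in C4 demethylation, ranged from 45.0 to 88.9 against 12.2 to 23.8, with medians of 64.35 and 20.1. Its log2 fold change was 1.74 ± 0.17 (adjusted p = 1.50e-06, edgeR), again with no overlap. Hsd17b7, the keto-reductase of the same step, was low in counts and ranged from 13.4 to 42.5 against 0 to 9.78, with a log2 fold change of 2.04 ± 0.34 (adjusted p = 0.0001765, edgeR). Cyp51, the lanosterol demethylase, rose by 1.40 and Dhcr7, which makes the last double-bond reduction, by 1.49 on the log2 scale, with adjusted p of 2.51e-05 and 4.60e-05 (edgeR). The levels of Cyp51 (30.6 to 68.1 against 6.12 to 27.1) and Dhcr7 (19.7 to 30.9 against 6.21 to 12.2) did not overlap between the nuclei compared either.

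In the mevalonate and squalene steps the picture was more mixed. Mvd, mevalonate diphosphate decarboxylase, ranged from 12.8 to 46.4 in NSC/astrocyte-like nuclei and from 2.44 to 8.64 in the others, and was higher by 2.00 ± 0.32 on the log2 scale (adjusted p = 0.000112, edgeR). Fdft1, squalene synthase, had a median of 80.4 against 33.1 and was higher by 1.15 (adjusted p = 0.000137, edgeR), although its ranges overlapped. Hmgcs1, the entry enzyme of the mevalonate route, was higher by 0.81 and Idi1, the isomerase, by 0.84, while Sc5d, a late desaturase, was higher by 0.95 on the log2 scale. Of these, Idi1 was higher in only 5 of 7 mice, and its call (adjusted p = 0.0335, edgeR) was lost in 5 of the alternative settings, with a fold change of 0.36 and an adjusted p of 0.335 at a mitochondrial share under 10%. The mice without which Idi1 lost its call were wt/wt 2 (0.72, adjusted p = 0.103), mut/mut 1 (0.85, adjusted p = 0.0622) and mut/mut 2 (0.77, adjusted p = 0.078, edgeR). Fdps, which makes farnesyl diphosphate, went the other way, with a level of 23.1 ± 12.8 against 32.05 ± 15.3 (mean ± SD, n = 7), a difference that did not pass the test (log2 fold change -0.57, adjusted p = 0.0678, edgeR). It was called lower in 4 of 19 alternative settings. Mvk, Pmvk and Sqle, the mevalonate kinases and squalene epoxidase, lay between 0.28 and 0.34 and did not pass either. Of the alternative settings, Sqle was called in 1 of 19, Mvk in 0 of 16 and Pmvk in 0 of 19.

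The SREBP genes followed in part. Srebf2, the factor most tied to the sterol genes, ranged from 117.6 to 162.7 against 38.9 to 75.7, with medians of 150.7 and 66.0. The ranges were separate in the 7 mice, and the log2 fold change was 1.19 ± 0.14 (adjusted p = 5.38e-06, edgeR). Insig1 was higher by 0.86 ± 0.22 (adjusted p = 0.00432, edgeR) and Srebf1, more tied to fatty acids, by 0.67 ± 0.20 (adjusted p = 0.00921, edgeR), both in 6 of 7 mice. Scap (0.29) and Insig2 (-0.17) did not pass the test.

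On the side of acetyl-CoA and fatty acids, Acss2, which makes acetyl-CoA from acetate, had the greatest fold change of the 27 members tested in these nuclei. It ranged from 94.7 to 212.6 CPM against 16.2 to 62.3, with medians of 144.5 and 33.7. No mouse overlapped, and the log2 fold change was 2.17 ± 0.22 (adjusted p = 1.805e-06, edgeR). Acaca, the carboxylase that makes malonyl-CoA, was higher by 1.06, Fasn, fatty acid synthase, by 1.2 and Elovl6, an elongase, by 1.08 on the log2 scale (adjusted p of 2.84e-05, 0.000246 and 0.00077, edgeR). Lpin1, a phosphatidate phosphatase, was higher by 0.53. Acly, the citrate lyase that also supplies acetyl-CoA, did not pass the test (0.45, adjusted p = 0.104, edgeR). The desaturases did not pass the test: Scd2 had a level of 250.6 ± 66.85 against 327.5 ± 97.95 (mean ± SD, n = 7) and Scd1 28.9 ± 8.42 against 25.4 ± 6.90. Under the alternative settings Acly was called in 2 of 19, Scd2 in 3 of 20 and Scd1 in 1 of 19. The 5 members with too few counts for the test were Acat2, Ebp, Lss, Stard4 and Tm7sf2, and they went both ways. Lss, lanosterol synthase, had ranges that did not overlap (11.3 to 23.5 against 4.32 to 10.4). It was called higher in 2 of the 2 alternative settings that could test it (1.43 to 1.49, adjusted p up to 0.000158, edgeR). Ebp, the sterol isomerase of a late step, was lower in 7 of 7 mice, at 0 to 7.67 against 4.14 to 18.35, on 0 to 3 UMIs per mouse, and with no filter on counts it was called lower (-2.24, adjusted p = 4.62e-05, edgeR). Stard4 (mean 13.15 against 11.6), Acat2 (15.8 against 7.67) and Tm7sf2 (6.48 against 3.14) had overlapping ranges. Of the alternative settings that could test them, Acat2 was called higher in 2 of 2 (0.89 to 1.11, adjusted p up to 0.0235, edgeR). Stard4 was called in 0 of 4 and Tm7sf2 in 0 of 1. A setting with a filter could test such a gene through its high level in NSC/astrocyte-like nuclei alone. These counts of settings, also for Lss, are thus descriptions and add no support. The 18 called members kept their direction under each of the 4 other scalings. Without the 5% of barcodes with most UMIs in each library 9 members could be tested, and 7 of the 18 calls were left.

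The promoters of the members were searched for letters they share. The shares given here cover all members with a window, whether or not they were higher in NSC/astrocyte-like nuclei. RefSeq promoter windows of 300 bases (250 before to 50 after the transcription start, GRCm38.p6) were found for 26 of the 32 members. The letters CCAAT, the core of the element bound by NF-Y, a usual partner of the SREBPs, were searched on both strands and stood in at least 1 window of 21 of these 26 genes (80.8%), against 41.1% of all 27025 genes with such a window. The letters GGGCGG, a GC box of the SP and KLF factors, stood in 21 of 26 as well (80.8%, against 38.2%), and the E-box letters CACGTG in 5 of 26 (19.2%, against 8.09%). The letters TCACNCCAC, the core of the classic sterol regulatory element, were found in 1 member, Hmgcs1, and in 1.44% of all genes. These are matches of letters and not sites of binding. By single windows the shares for CCAAT were 64.7% of 34 member windows and 37.4% of all 32851, as some genes have several windows.
Hmgcs1, Msmo1 and Nsdhl are printed as members with several CCAAT matches and Acaca, whose window lies at an inner start within the gene, as one with none. Each is given 5′ to 3′ on the strand of its gene, with CCAAT (or ATTGG, its reverse) and TCACNCCAC in capitals, and no match overlapped another.
Hmgcs1, chr13:119690101-119690400, plus strand: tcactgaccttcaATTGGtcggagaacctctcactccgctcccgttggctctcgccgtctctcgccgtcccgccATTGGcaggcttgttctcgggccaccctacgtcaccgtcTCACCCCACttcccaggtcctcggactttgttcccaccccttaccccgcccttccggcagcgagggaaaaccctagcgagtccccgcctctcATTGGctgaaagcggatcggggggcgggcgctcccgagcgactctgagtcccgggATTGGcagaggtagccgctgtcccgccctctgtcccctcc
Msmo1, chr8:64733529-64733828, minus strand: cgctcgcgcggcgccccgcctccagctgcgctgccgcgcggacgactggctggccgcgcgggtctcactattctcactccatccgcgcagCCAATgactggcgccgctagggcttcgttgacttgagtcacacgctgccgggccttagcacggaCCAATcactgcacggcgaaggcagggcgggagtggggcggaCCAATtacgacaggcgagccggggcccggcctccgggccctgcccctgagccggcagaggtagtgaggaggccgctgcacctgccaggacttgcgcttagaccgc
Nsdhl, chrX:72918271-72918570, plus strand: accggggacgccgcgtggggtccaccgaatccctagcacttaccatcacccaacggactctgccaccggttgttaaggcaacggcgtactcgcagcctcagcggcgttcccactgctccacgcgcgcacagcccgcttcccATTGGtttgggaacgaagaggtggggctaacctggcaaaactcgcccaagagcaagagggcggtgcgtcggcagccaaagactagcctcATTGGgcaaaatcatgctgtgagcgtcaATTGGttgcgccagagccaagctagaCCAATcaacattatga
Acaca, chr11:84195188-84195487, plus strand: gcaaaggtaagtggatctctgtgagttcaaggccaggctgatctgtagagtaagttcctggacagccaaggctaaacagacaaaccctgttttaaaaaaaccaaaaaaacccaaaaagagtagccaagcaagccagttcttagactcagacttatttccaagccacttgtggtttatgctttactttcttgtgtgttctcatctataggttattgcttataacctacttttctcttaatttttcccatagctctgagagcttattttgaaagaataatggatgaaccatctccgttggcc
In Hmgcs1 the sterol element match began at base -137 and the CCAAT matches at -237, -176, -45 and 10, counted from the transcription start. In Msmo1 the 3 CCAAT matches began at -160, -96 and -55, all on the strand of the gene. Nsdhl held 4 matches, at -109, -20, 8 and 34.

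In oligodendrocyte-like nuclei the desaturase and carboxylase genes were higher. Scd2, the main stearoyl-CoA desaturase of the brain, ranged from 345.2 to 1566 CPM over 7 mice, with a median of 926.2, and from 160.0 to 291.6 in the other nuclei, with a median of 207.2. The ranges did not overlap, and the log2 fold change was 2.06 ± 0.25 (adjusted p = 6.18e-07, edgeR). Acaca ranged from 267.2 to 665.6 against 93.8 to 250.5 and was higher by 1.32 ± 0.21 (adjusted p = 1.51e-05, edgeR). Scap was higher by 0.94 in 7 of 7 mice, Scd1 by 1.17 in 5, Elovl6 by 0.80 in 6 and Insig1 by 0.98 in 6 (adjusted p from 0.0014 to 0.0107, edgeR).

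Lpin1 and Msmo1 were lower in oligodendrocyte-like nuclei than in the other nucleus-like barcodes. In this and the other classes below, those barcodes included the NSC/astrocyte-like nuclei, the largest class (1177 of 3470 nucleus-like barcodes). A lower value in a class therefore does not tell a low level there from a high level in NSC/astrocyte-like nuclei. For Msmo1 the median in NSC/astrocyte-like nuclei was 179.9. Lpin1 had a median of 15.9 against 46.0, with a log2 fold change of -1.31 ± 0.32 (adjusted p = 0.00162, edgeR), and was lower in 7 of 7 mice. Msmo1 had a median of 57.0 against 104.4 and a log2 fold change of -0.56 (adjusted p = 0.0364, edgeR), a call that was lost in 8 of the alternative settings. Thus 6 of the 22 members tested were higher and 2 lower, against 21.1% and 32.9% of all 6664 genes tested. The other 14 tested members had log2 fold changes between -0.62 and 0.46 and did not pass. Without the 5% of barcodes with most UMIs 7 members could be tested and 3 calls were left, for Scd2, Acaca and Elovl6.

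**Figure D2:**
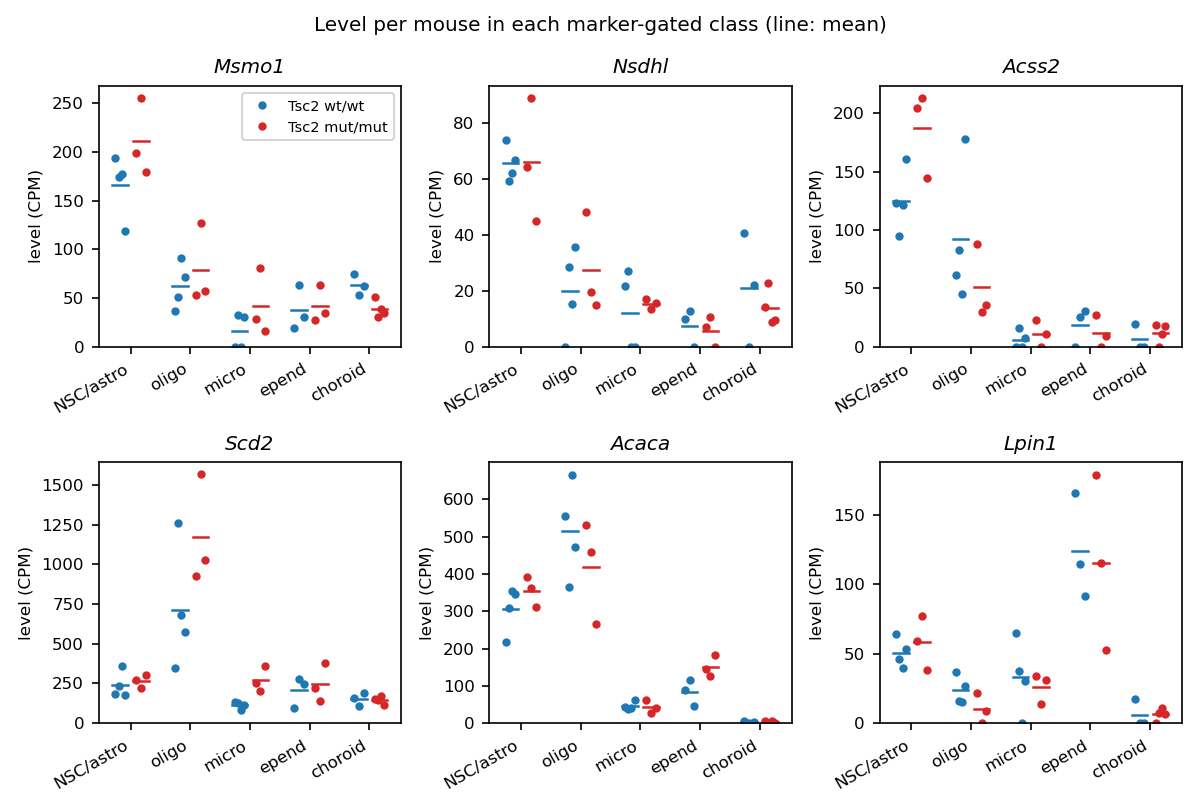
Levels in CPM, UMIs scaled to 1000000 per class and mouse (linear axes from 0) of 6 synthesis genes in each marker-gated class, with 1 point per mouse with at least 10 nuclei, Tsc2 wt/wt in blue and mut/mut in red, and the mean as a line. Msmo1, Nsdhl and Acss2 were highest in NSC/astrocyte-like nuclei, Scd2 and Acaca in oligodendrocyte-like nuclei and Lpin1 in ependymal-like nuclei.

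Most of the members that could be tested were lower in microglia-like nuclei. Of the 16 members tested 11 were lower than in the other nuclei of the same 7 mice and none was higher, where 34.2% of all 6450 genes tested were called lower and 24.1% higher. Some of them rested on few UMIs here, 0 to 3 per mouse for Elovl6 and 0 to 4 for Acss2. Such genes passed the filter through the other nuclei and could hardly come out higher, so the count is not a test of the members as a set. Elovl6, Acss2 and the sterol gene Fdft1 were furthest down, with Acaca next. The level of Acaca ranged from 26.9 to 62.5 CPM against 125.1 to 299.9, with a log2 fold change of -2.57 ± 0.24 (adjusted p = 9.64e-09, edgeR). Elovl6 ranged from 0 to 21.7 against 59.8 to 121.6 and Acss2 from 0 to 22.7 against 49.55 to 110.8, with log2 fold changes of -3.80 and -3.00. These 3 genes had no overlap between the nuclei compared.

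Among sterol genes of microglia-like nuclei, Fdft1 (-2.90) and Msmo1 (-2.02) fell most, followed by Nsdhl (-1.43) and Hmgcs1 (-1.30), with adjusted p from 1.02e-05 to 0.00496 (edgeR). Fdft1 had no UMI in most of the mice, and its highest level was 15.65 against a lowest of 36.5 in the other nuclei. Of the 5 regulators tested 3 were called: Insig1 (-2.04), Srebf1 (-1.85) and Srebf2 (-1.62) were lower, each in 7 of 7 mice, while Scap (-0.38, adjusted p = 0.303) and Insig2 (-0.05, adjusted p = 0.915, edgeR) did not pass. Scd2 fell by 1.00 with overlapping ranges (83.6 to 359.9 against 184.8 to 383.8). Acly, the citrate lyase that supplies cytosolic acetyl-CoA, was an exception in direction, at 54.4 ± 11.6 against 36.0 ± 5.16 (mean ± SD, n = 7), and did not pass the test (log2 fold change 0.37, adjusted p = 0.244, edgeR). Lpin1 (-0.61) and Scd1 (-0.40) did not pass either. Under the alternative settings Lpin1 was called lower in 4 of 19, Scap in 1 of 19 and Scd1 in 0 of 18. The median of all genes stood at -0.20 in this comparison and at -0.57 with DESeq2, whose split was 1185 genes higher and 3050 lower against 1555 and 2204, and all 11 members stayed below 0 under each scaling. With no filter on counts 23 members were called, and without the top 5% of barcodes, where only 6 could be tested, 6.

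Ependymal-like nuclei had 1 gene above the rest. Lpin1 ranged from 52.4 to 178.7 CPM over 6 mice, with a median of 115.1, and from 32.5 to 44.2 in the other nuclei. The ranges did not overlap, and the log2 fold change was 1.64 ± 0.26 (adjusted p = 3.74e-05, edgeR). It was the only one of 13 members tested that was called higher, and 8 were lower, where 23.2% and 27.4% of all 6195 genes tested were called. Here too a gene could pass the filter only through the other nuclei, so the counts are not a test of the members as a set.

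The sterol and acetyl-CoA genes that could be tested were lower in ependymal-like nuclei. The log2 fold change was -2.40 for Acss2, -1.96 for Acly, -1.77 for Fdft1, -1.49 for Msmo1 and Elovl6 and -1.48 for Hmgcs1 (adjusted p from 0.0002 to 0.00548, edgeR). Msmo1 ranged from 19.5 to 63.8 against 89.4 to 123.5, and Acss2 from 0 to 30.5 against 51.9 to 105.1, so that neither overlapped. Acaca (-0.89) and Scd2 (-0.56) were lower with overlapping ranges. The Scd2 call (adjusted p = 0.0429) was lost in 7 of the alternative settings, with adjusted p up to 0.143 (edgeR). Among these were leaving out wt/wt 1 (-0.50), wt/wt 3 (-0.59), mut/mut 1 (-0.58) or mut/mut 2 (-0.44). Srebf1 and Srebf2 did not pass the test, at 47.15 ± 22.7 against 31.0 ± 7.75 and 80.75 ± 30.4 against 92.9 ± 18.1 (mean ± SD, n = 6). With no filter on counts 18 members were called, and without the top 5% of barcodes 3 of 6 tested (Lpin1, Acaca and Scd2).

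Choroid plexus-like nuclei differed from the rest in both directions. Acaca was nearly at the floor, from 0 to 6.41 CPM over 7 mice against 78.8 to 307.4 in the other nuclei, with a log2 fold change of -5.86 ± 0.45 (adjusted p = 2.21e-09, edgeR). Acss2 (log2 fold change -2.79), Elovl6 (-2.68), Srebf2 (-1.57), Scd2 (-1.17), Nsdhl (-1.16), Insig1 (-1.15) and Msmo1 (-1.10) were lower as well. Some isoprenoid genes lay on the other side. Fdps had a median of 67.5 against 18.8 and was higher by 1.34 ± 0.28 in 7 of 7 mice (adjusted p = 0.000278, edgeR). Pmvk was higher by 0.85 and Idi1 by 0.65, each in 6 of 7 mice, and Insig2 by 0.59 in 7 of 7.

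These choroid plexus-like values have to be read against a shifted scale. The median of all 6214 genes stood at -0.67, and at 0.05 with upper-quartile factors, when 2500 genes were called higher and 2289 lower in place of 1930 and 3061. All 12 called members kept their sign under each scaling tried, but with upper-quartile factors 4 of them lost their call: Scd2 (-0.45), Msmo1 (-0.38), Nsdhl (-0.46) and Insig1 (-0.49), with adjusted p from 0.219 to 0.336 (edgeR). The Idi1 call was lost in 7 and the Insig2 call in 8 of the alternative settings, with adjusted p up to 0.16 and 0.177 (edgeR). Idi1 was not called without wt/wt 1, wt/wt 4, mut/mut 1 or mut/mut 3 (0.61 to 0.64), nor Insig2 without wt/wt 1, mut/mut 1, mut/mut 2 or mut/mut 3 (0.49 to 0.62). The counts, 4 members higher and 8 lower of 18 tested, lay below the 31.1% and 49.3% of all genes that were called. Without the fourth mut/mut mouse, which gave 124 of the 337 nuclei, 19 of 24 members tested were called, the 12 among them.

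Across the classes the order of levels was gene by gene. For Msmo1 the median over mice was 179.9 in NSC/astrocyte-like, 57.0 in oligodendrocyte-like, 51.5 in choroid plexus-like, 32.7 in ependymal-like and 28.4 in microglia-like nuclei. The first overlapped the second only at its edge (lowest 118.7 against highest 127.3), and the other neighbours overlapped as well. For Scd2 the order was oligodendrocyte-like (926.2), then NSC/astrocyte-like (234.8), ependymal-like (231.8), choroid plexus-like (154.6) and microglia-like (130.4), and all neighbours overlapped, the first pair only between 345.2 and 361.4. For Acaca it was oligodendrocyte-like (471.6), NSC/astrocyte-like (346.4), ependymal-like (120.4), microglia-like (41.8) and choroid plexus-like (4.45), where the first pair and the ependymal-like and microglia-like ranges overlapped and the other neighbours did not.

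The nucleus-like and the mitochondria-rich barcodes held these genes in different proportions. On the TMM scale 23 of 32 members were lower in the nucleus-like barcodes of the same 8 mice and 4 were higher, where 40.1% of all 10884 genes tested were called lower and 38.6% higher. The desaturases had the greatest gap. Scd1 ranged from 14.4 to 33.7 CPM in nucleus-like barcodes and from 103.8 to 157.4 in mitochondria-rich ones, with a log2 fold change of -3.82 ± 0.21 (adjusted p = 1.04e-07, edgeR). Scd2 ranged from 167.0 to 373.8 against 711.0 to 1154, with a log2 fold change of -3.19 ± 0.24 (adjusted p = 3.14e-07, edgeR). For both genes the 8 mice were separate.

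Among the sterol genes Idi1 (-2.64), Sc5d (-2.35), Hmgcs1 (-2.35), Cyp51 (-2.30), Mvd (-1.77), Pmvk (-1.75) and Fdps (-1.69) were lower in the nucleus-like barcodes, and so were Fasn (-2.26) and the regulators Insig1 (-1.79), Srebf2 (-0.90) and Insig2 (-0.42). Acaca was higher by 1.87 ± 0.26, with levels of 28.2 to 290.8 against 10.8 to 24.9 and no overlap. The other 3 members called higher were Elovl6 (1.5), Lpin1 (0.80) and Acss2 (0.35), the last of which lost its call in 10 of the alternative settings, as Insig2 did in 13. Srebf1, Nsdhl, Dhcr7, Ebp and Scap did not pass the test. Under the alternative settings Srebf1 and Nsdhl were called in 3 of 19 each, Ebp in 2 of 17 and Dhcr7 and Scap in 1 of 19 each.

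The direction of many of these values rested on the scale. TMM factors set the median of all genes near 0 (-0.06), while plain library size put it at 1.45, with 7528 genes higher and 1366 lower in place of 4198 and 4364. The barcodes were split on mitochondrial share, and library size and CPM count mitochondrial UMIs. Median shares per mouse were 4.83% to 10.13% in nucleus-like and 44.7% to 51.53% in mitochondria-rich barcodes. Part of the rise of other genes on the plain scale thus follows from the split itself, and how much was not tested. On the plain scale 12 of the 27 called members turned from lower to higher: Insig2, Hsd17b7, Mvk, Msmo1, Lss, Acly, Fdft1, Sqle, Srebf2, Acat2, Stard4 and Tm7sf2. The desaturases, Idi1, Hmgcs1, Sc5d, Cyp51 and Fasn were still called lower on the plain scale. Fdps (-0.19), Pmvk (-0.26), Mvd (-0.26) and Insig1 (-0.29) lost their calls on it, with adjusted p from 0.16 to 0.515 (edgeR). Acaca, Elovl6, Lpin1 and Acss2 stayed higher on every scale tried. The mitochondria-rich levels were close to those of free RNA, taken as the 20000 barcodes with fewest UMIs in each library: the ratio of the pooled levels had a median of 1.15 over the members and lay between 0.93 (Scd1) and 1.62 (Ebp). How much of the mitochondria-rich signal was free RNA was not tested.

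**Figure D3:**
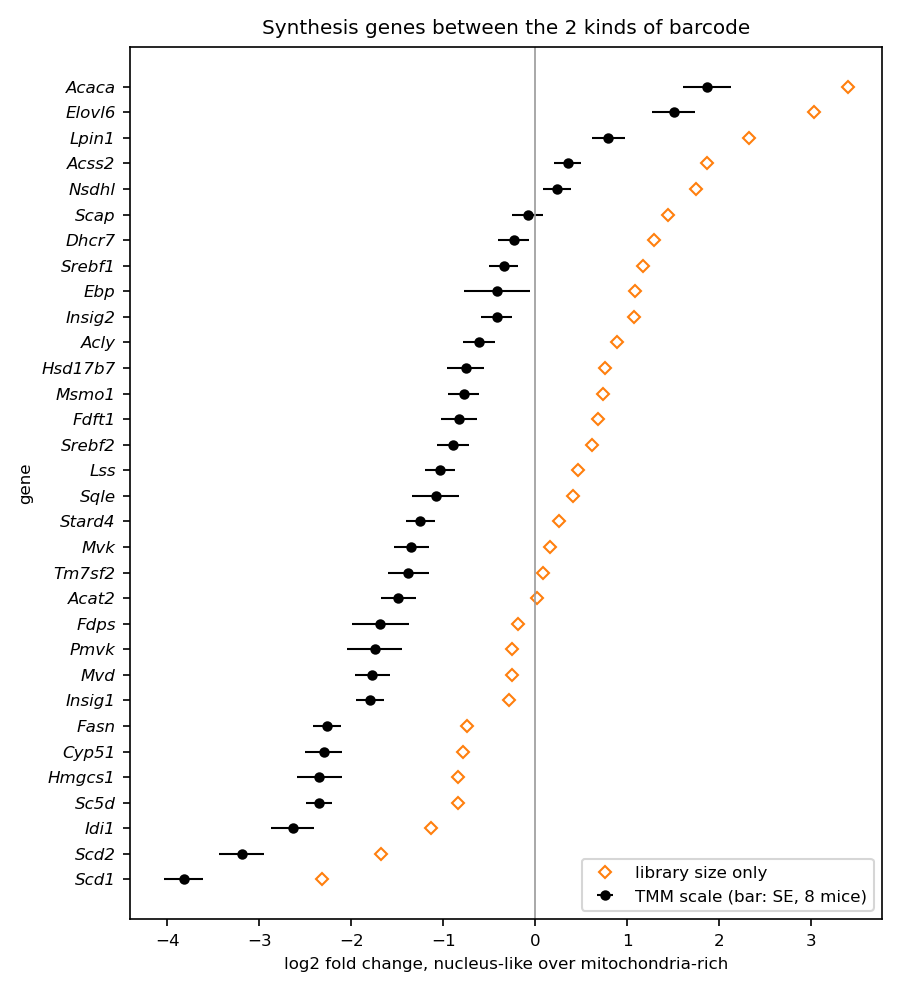
Log2 fold change of each synthesis gene between nucleus-like and mitochondria-rich barcodes of 8 mice, on the TMM scale (black, with SE) and by library size alone (orange). On both scales Scd1 is lowest and Acaca highest, from Scd1 at -3.82 to Acaca at 1.87 on the TMM scale, while the zero line moves.

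Gene length went along with this order. The annotated length from first to last base (GENCODE M21, GRCm38) ranged over the members from 5.553 kb for Tm7sf2 to 272.0 kb for Acaca, and Pearson's r between log10 length and the nucleus-like over mitochondria-rich log2 fold change was 0.754 (Spearman's rho 0.728) over the 32 genes. Over all 10879 genes with a length it was 0.539 (0.556). These are descriptions across genes that share the same 8 libraries and are not independent replicates. Acaca (chromosome 11, 84129672 to 84401651), Elovl6 (chromosome 3, 129532355 to 129638495), Lpin1 (chromosome 12, 16535669 to 16610966) and Acss2 (chromosome 2, 155517948 to 155585724), the 4 members called higher, were also the 4 longest.

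**Figure D4:**
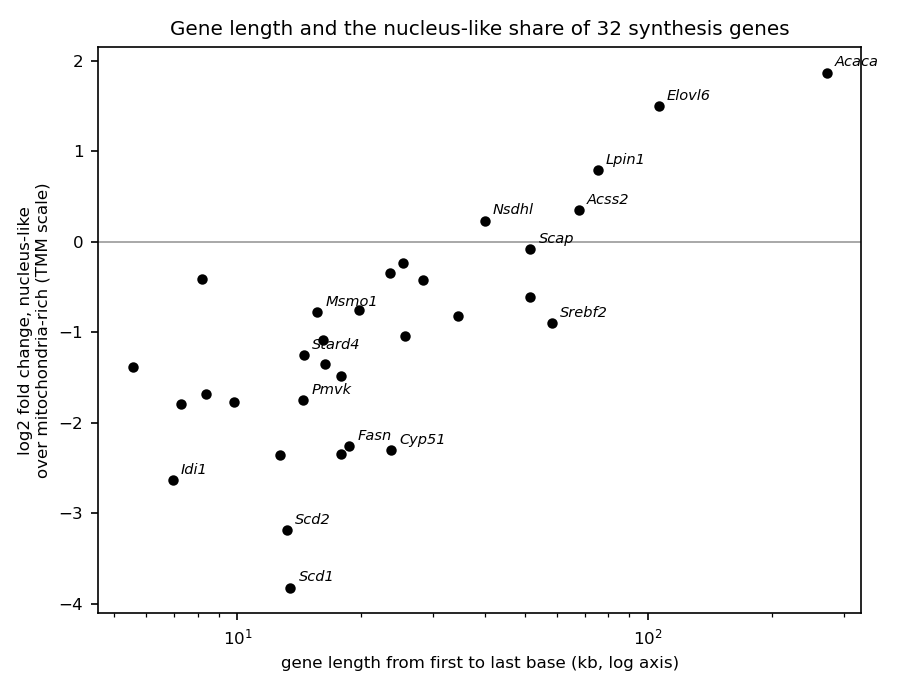
Gene length in kb (log axis) against the log2 fold change of nucleus-like over mitochondria-rich barcodes for the 32 synthesis genes, some of them named. The longest genes (Acaca, Elovl6, Lpin1 and Acss2) lie above 0 and most short ones below it.

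No member was called between the genotypes in any of the 8 sums of barcodes examined. Some members had levels that did not overlap between the genotypes. Of 32, these were 4 higher and 1 lower in mut/mut mice in NSC/astrocyte-like nuclei. They were 2 and 1 in ependymal-like, 2 and 0 in microglia-like, 1 and 1 in oligodendrocyte-like, and 0 and 3 in choroid plexus-like nuclei. Over nucleus-like barcodes they were 1 and 1. The share of all genes without overlap is not given here, so such gaps only describe these mice. In the mitochondria-rich barcodes 0 of 32 members passed against 0.271% of all 10702 genes tested. The values leaned down: 25 of 32 members were below 0 and 9 had an unadjusted p under 0.05 (6 with DESeq2), with a median log2 fold change of -0.14 beside 0.02 for all genes. Of all genes tested 47.0% were below 0 and 13.8% had an unadjusted p under 0.05. The members with the lowest p were sterol genes. Msmo1 stood at 55.9, 60.8, 54.6 and 66.6 CPM in the wt/wt mice and at 58.8, 41.1, 58.2 and 47.2 in the mut/mut mice. The groups overlapped, with 2 mut/mut mice below the lowest control, and the log2 fold change was -0.30 ± 0.11 (adjusted p = 0.212, edgeR).

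Idi1 in mitochondria-rich barcodes stood at 54.7, 57.8, 60.2 and 58.9 in wt/wt and at 56.9, 43.9, 49.7 and 50.8 in mut/mut mice (log2 fold change -0.29, adjusted p = 0.222, edgeR). Ebp was low in counts, at 2.83, 3.85, 4.58 and 6.25 against 3.76, 2.21, 2.89 and 2.07 (-0.77, adjusted p = 0.246, edgeR). Hmgcs1 stood at 129.6, 151.7, 167.1 and 152.4 against 140.7, 114.4, 141.1 and 138.9 (-0.25, adjusted p = 0.247, edgeR). In each of these genes the groups overlapped through 1 mouse or more. The desaturases did not pass either and lay slightly above 0: Scd2 (0.12 ± 0.11) and Scd1 (0.16 ± 0.11), with adjusted p of 0.681 and 0.519 (edgeR).

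**Figure D5:**
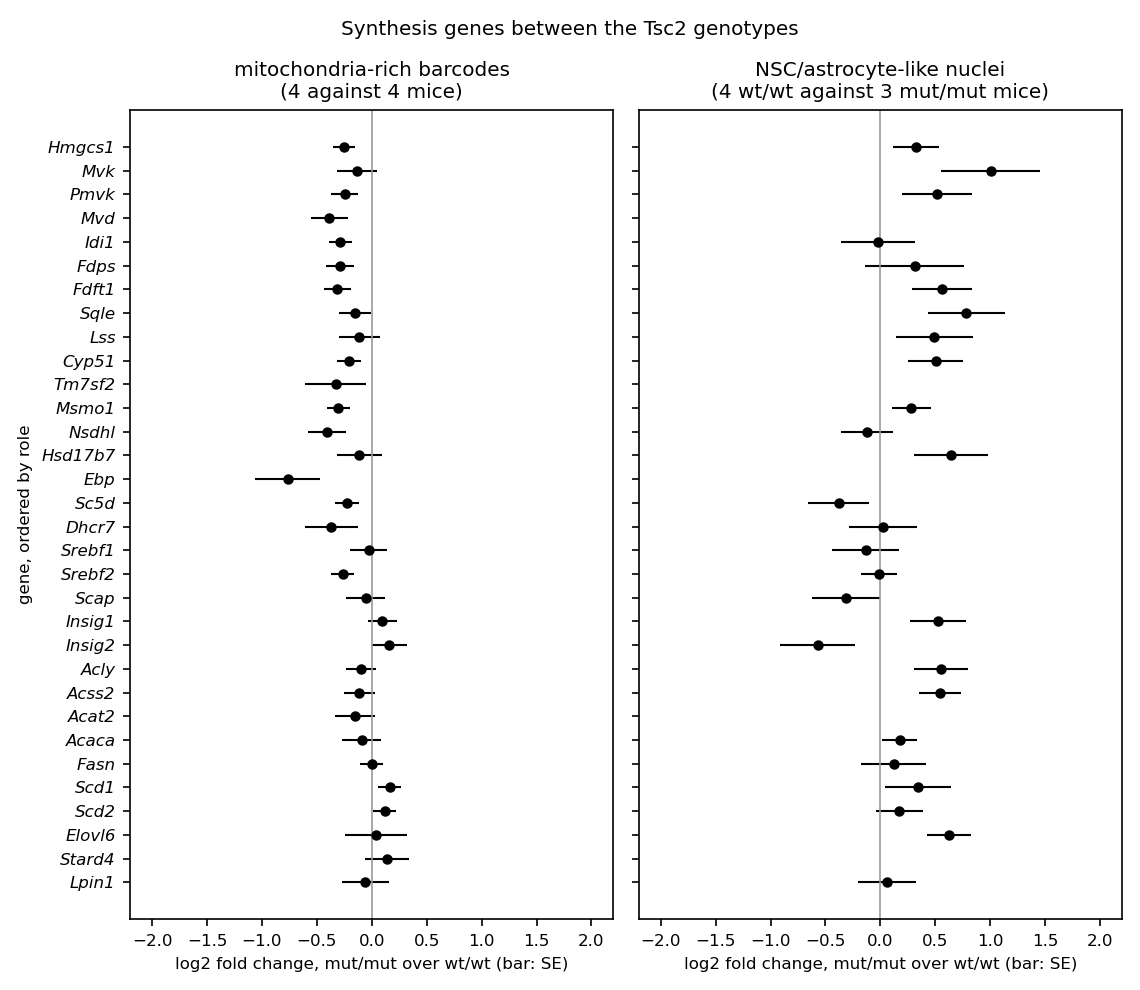
Log2 fold change of each synthesis gene, Tsc2 mut/mut over wt/wt, with SE, in mitochondria-rich barcodes (left, 4 against 4 mice) and in NSC/astrocyte-like nuclei (right, 4 against 3). In the left panel 25 of 32 genes lie below 0 and in the right panel 20 of 27 lie above it, and none passed the test.

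In the NSC/astrocyte-like nuclei the values leaned the other way, again with no call among 27 tested (background 0.0148% of 6752 genes). There 20 of 27 members were above 0 and 5 had an unadjusted p under 0.05 (2 with DESeq2), with a median of 0.31 beside -0.0044 for all genes. In this comparison 49.4% of all genes were above 0 and 7.18% had an unadjusted p under 0.05. The elongase Elovl6 stood at 122.7, 102.6, 98.8 and 78.5 CPM in the wt/wt mice and at 190.6, 173.9 and 117.7 in the mut/mut mice, with an overlap of 1 mouse (log2 fold change 0.63 ± 0.20, adjusted p = 0.436, edgeR). Acss2 stood at 122.7, 94.7, 121.4 and 160.8 against 204.2, 212.6 and 144.5 (0.54 ± 0.19, adjusted p = 0.53, edgeR). In both genes the third mut/mut mouse lay below the highest control and the other mut/mut mice above all controls.

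Other members with a low p in these nuclei were Mvk, Sqle and Acly. Mvk stood at 7.67, 7.89, 19.8 and 9.57 against 21.0, 34.8 and 16.3 (1.00 ± 0.45, adjusted p = 0.6565, edgeR). Sqle stood at 12.8, 24.7, 28.2 and 13.4 against 24.8, 61.8 and 34.4 (0.78 ± 0.35, adjusted p = 0.6565, edgeR). Acly stood at 38.4, 43.4, 31.1 and 28.7 against 54.45, 69.6 and 47.8, without overlap (0.55 ± 0.25, adjusted p = 0.664, edgeR). Of the members with most UMIs, Acaca (0.18), Scd2 (0.17) and Msmo1 (0.28) had adjusted p of 0.907, 0.927 and 0.814 (edgeR). The median mitochondrial share of these nuclei also differed, at 2.30% to 5.83% in the wt/wt mice and 6.72% to 7.81% in the mut/mut mice, and their summed NSC/astrocyte markers were 31160 to 33960 against 28150 to 29620 CPM. Median UMIs per nucleus were 2858 to 4907 in the wt/wt mice and 2105 to 3152 in the mut/mut mice compared, lowest in mut/mut 2. Among the mice compared, mut/mut 2 also had the highest Acss2, Mvk, Sqle and Acly, but not the highest Elovl6. The part of any of these in the values was not tested.

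The difference between these leanings was itself tested by an interaction term over 7 mice, and no member was called (0.0436% of 11473 genes were). The genotype effect was higher in NSC/astrocyte-like nuclei than in mitochondria-rich barcodes for 26 of 31 members tested, and 10 of the 31 had an unadjusted p under 0.05. For all genes these shares were 51.2% and 8.5%. The lowest p were for Fdft1 (0.84 ± 0.27, adjusted p = 0.351, edgeR), Mvd (1.23 ± 0.40, adjusted p = 0.355, edgeR), Acss2 (0.65 ± 0.22, adjusted p = 0.37, edgeR) and Cyp51 (0.78 ± 0.26, adjusted p = 0.37, edgeR). This fit was chosen after the values above were seen. Both effects come from the same libraries.

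Over all nucleus-like barcodes no member passed among 31 tested, with 0.0% of all 11007 genes called. Of all genes tested 1.535% had an unadjusted p under 0.05 (edgeR). With edgeR 1 member had one, and with DESeq2 also 1. By edgeR this was Sqle, squalene epoxidase, at 22.8, 19.6, 20.6 and 17.2 CPM in wt/wt and 23.6, 48.9, 25.2 and 33.4 in mut/mut mice, which did not overlap (log2 fold change 0.95 ± 0.37, adjusted p = 0.922, edgeR). Scap (-0.53), Mvk (0.52) and Lss (0.43) came next. Scd2, Acaca, Msmo1 and Srebf2, with the most UMIs, lay between -0.30 and 0.29. The fourth mut/mut mouse, mostly choroid plexus-like, had 28.2 for Acaca where the other 7 mice had 122.2 to 290.8, and 24.0 for Srebf2 where they had 62.2 to 108.7. In nuclei summed over cell types, fewer cells of a type and less RNA per cell cannot be told apart.

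Over all kept barcodes the 32 members were spread around 0 (15 above and 17 below, median -0.01), and 0.0153% of 13060 genes were called, none of them a member. Nsdhl had the lowest p, at 20.3, 17.6, 16.6 and 18.5 in wt/wt and 17.9, 12.3, 14.8 and 8.93 in mut/mut mice (-0.40 ± 0.16, adjusted p = 0.9998, edgeR). It was the only member with an unadjusted p under 0.05 by edgeR, against 2.58% of all genes tested, and DESeq2 also gave 1. Ebp (-0.54), Scd1 (0.34), Scap (-0.28), Scd2 (0.29), Hmgcs1 (-0.04) and Msmo1 (-0.17) did not pass.

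In oligodendrocyte-like nuclei 12 members were tested, none passed (background 0.0265% of 3774 genes), and 1 had an unadjusted p under 0.05 by edgeR and 1 by DESeq2. Of all genes tested there 7.63% had such a p by edgeR. Acss2 stood at 61.7, 82.7, 45.4 and 178.0 in wt/wt and 87.8, 29.4 and 36.0 in mut/mut mice (-0.94 ± 0.44, adjusted p = 0.633, edgeR). Scd2 stood at 345.2, 1259, 680.7 and 573.9 against 926.2, 1566 and 1027 (0.65 ± 0.39, adjusted p = 0.773, edgeR). Without the second wt/wt mouse, the only control inside the mut/mut range, Scd2 was called (1.13 ± 0.24, adjusted p = 0.00502, edgeR). This was the only call for Scd2 among 22 alternative settings. The median mitochondrial share of these nuclei was 6.48%, 10.1%, 6.41% and 4.95% in the wt/wt mice and 10.19%, 12.58% and 12.88% in the mut/mut mice. The left-out control thus also had the highest share of the controls. Pooled Scd2 was 930.7 CPM in mitochondria-rich and 302.1 in nucleus-like barcodes. The part of this share in the Scd2 level was not tested. Scap (-0.60), Hmgcs1 (0.69), Acaca (-0.26), Elovl6 (-0.06) and Srebf2 (0.19) did not pass.

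In microglia-like nuclei Scd2 alone had enough counts for the test, and DESeq2 gave no call either. It stood at 130.4, 130.0, 83.6 and 114.5 in wt/wt and at 249.9, 201.7 and 359.9 CPM in mut/mut mice, and the groups did not overlap. These levels rest on 2 to 69 UMIs per mouse. The log2 fold change was 1.26 ± 0.31 and the adjusted p 0.173 (edgeR, unadjusted 0.000491), beside 0.0708% of 2823 genes called. Leaving out the second wt/wt or the second mut/mut mouse made it a call (1.38 ± 0.37, adjusted p = 0.0406, and 1.42 ± 0.32, adjusted p = 0.0424, edgeR). Free RNA of the same libraries was rich in this gene, at 652.2 to 789.5 in the wt/wt and 716.9 to 1012 in the mut/mut mice. Summed oligodendrocyte markers in these nuclei were 292.6 to 1089 against 755.4 to 1179. Their median mitochondrial share was 5.94%, 10.96%, 6.68% and 5.23% in the wt/wt mice and 11.93%, 9.12% and 14.02% in the mut/mut mice compared. The part of any of these in the Scd2 level was not tested.

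In ependymal-like nuclei 3 members were tested and none passed (background 0.094% of 2127 genes). Acaca stood at 87.7, 114.9 and 45.7 in wt/wt and 144.4, 125.9 and 183.5 in mut/mut mice, with no overlap (0.86 ± 0.39, adjusted p = 0.555, edgeR). Scd2 (0.32) and Lpin1 (-0.08) did not pass, 1 member had an unadjusted p under 0.05, and DESeq2 gave none. Of all genes tested there 8.65% had such a p by edgeR. In choroid plexus-like nuclei 2.61% of 2606 genes were called and none of 7 members. Msmo1 stood at 74.8, 53.0 and 62.3 in wt/wt and 51.5, 30.2, 38.2 and 35 in mut/mut mice, without overlap (-0.73 ± 0.31, adjusted p = 0.207, edgeR). It was the only member with an unadjusted p under 0.05 there, against 17.4% of all genes tested (edgeR), and DESeq2 gave none. Insig2 (-0.40), Fdps (-0.19), Fdft1 (0.09), Scd2 (-0.06), Pmvk (-0.02) and Hmgcs1 (0.01) followed. Median UMIs per choroid plexus-like nucleus were 8605 to 13430 in the wt/wt mice compared and 4684 to 8661 in the mut/mut mice. The part of this depth in the Msmo1 value was not tested.

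Other genes of sterol handling and of fatty acid metabolism were read from a pair of lists of 32 genes each. In NSC/astrocyte-like nuclei 5 of 27 tested sterol handling genes were higher (18.5%) and 10 lower (37.0%), where 27.4% and 34.1% of all genes were. They were led by Cyp7b1, an oxysterol hydroxylase (3.17), Soat1, which esterifies cholesterol (1.88), and Abcg1, a sterol exporter (-4.84). Of 22 other fatty acid genes 11 were higher (50.0%) and 7 lower (31.8%), led by the acyl-CoA synthetases Acsl6 (2.90) and Acsl3 (3.07) and by Gpam, the first acyltransferase of glycerolipid synthesis (3.31). In oligodendrocyte-like nuclei 7 of 23 sterol handling genes were higher (30.4%) and 11 lower (47.8%), where 21.1% and 32.9% of all genes were, with Apod, a lipocalin (5.25), the receptor Vldlr (2.77) and Abcg1 (3.12) in front. The other fatty acid genes there split into 5 higher (31.2%) and 7 lower (43.8%) of 16, with Agpat4 (2.76) and Elovl7 (2.84) up and Gpam (-3.16) down.

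In microglia-like nuclei 8 of 20 sterol handling genes were higher (40.0%) and 6 lower (30%), where 24.1% and 34.2% of all genes were, with Mylip, a ligase for lipoprotein receptors, at 4.54, Cyp7b1 at -5.80 and Apod at -4.89. Of the other fatty acid genes 3 were higher (17.6%) and 10 lower (58.8%) of 17, with Mlxipl, the carbohydrate-responsive factor, at 4.41, Lpin2 at 2.43 and Acsl3 at -3.49. Ependymal-like nuclei had 1 higher and 6 lower of 17 and 1 higher and 8 lower of 15, led by Apod (-9.26) and Agpat4 (2.02), where 23.2% and 27.4% of all genes were called. Choroid plexus-like nuclei had 4 higher and 10 lower of 19 and 3 higher and 8 lower of 17, led by Apod (-4.04) and Elovl5 (-5.58), where 31.1% and 49.3% of all genes were called. Between the nucleus-like and mitochondria-rich barcodes 11 sterol handling genes were higher and 7 lower of 27, and 8 other fatty acid genes were higher and 14 lower of 27, led by Cyp46a1 (-2.35) and Fabp5 (-4.27), where 38.6% and 40.1% of all genes were called.

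Between the genotypes these lists gave 1 call in all. Npc2, which carries cholesterol out of lysosomes, was lower in the choroid plexus-like nuclei of mut/mut mice (-0.80 ± 0.18, adjusted p = 0.0195, edgeR), 1 of 6 sterol handling genes tested there. In that comparison 2.61% of all 2606 genes tested were called. Median UMIs per choroid plexus-like nucleus were 8605 to 13430 in the wt/wt mice compared and 4684 to 8661 in the mut/mut mice. The part of this depth in the Npc2 value was not tested. In the mitochondria-rich barcodes 0 of 27 genes of either list passed, and in NSC/astrocyte-like nuclei 0 of 17 and 0 of 16. Their median log2 fold changes there were 0.01 and -0.08 and then 0.01 and -0.07, beside -0.14 and 0.31 for the synthesis genes. In the mitochondria-rich barcodes 17 of 27 other fatty acid genes were below 0 and 25.9% had an unadjusted p under 0.05 (edgeR). For sterol handling genes these were 13 of 27 and 11.1%, and for the synthesis genes 25 of 32 and 28.1%. The downward lean was thus shared in part by the other fatty acid genes.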

How the data were processed

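Single-nucleus RNA-seq was made from the V-SVZ of 8 mice. Per the labels and the study's methods, the authors deposited raw UMI counts per gene and barcode from Cell Ranger (reference GRCm38), run so that 60000 barcodes were kept for every library, and they worked on with Seurat 4 (submitters' processing notes). With so many barcodes most were taken to hold free RNA, which was not tested. Barcodes were therefore kept from 300 genes upwards and divided at a mitochondrial share of 20%. No doublet caller was run. The sort gated out doublets before the droplets were made, and nuclei sharing a droplet were not searched for. A nucleus was gated into a class when at least 3 of its markers had a UMI and these were at least 2 times as many as for the next class. UMIs were summed per mouse, so p-values between genotypes measure the spread between these mice. Within mice, with mouse as a block, they measure how much the difference varied from mouse to mouse.

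Sums were tested with edgeR 4.0.16 (R 4.3.3, limma 3.58.1; TMM, filterByExpr, robust quasi-likelihood fit, Benjamini-Hochberg adjustment over all genes tested, threshold 0.05), without a block between genotypes and with mouse as a block within mice. The plan asked for at least 10 barcodes of a class in every mouse, which no class had, so mice with at least 10 entered: 7 for NSC/astrocyte-like, oligodendrocyte-like and microglia-like (without mut/mut 4), 6 for ependymal-like (without wt/wt 4 and mut/mut 4) and 7 for choroid plexus-like nuclei (without wt/wt 3). DESeq2 1.42.0, other scalings, filters, gates and left-out mice were alternatives. Code was tested on simulated data. Named were all called members, or, where more than 12 passed, the 12 with the largest change and the SREBP genes; where none passed, the 4 of lowest p and the 4 with most UMIs; other members were named after their values were seen. The members and lists were chosen with earlier results of these data known. Promoter sequences are from RefSeq and gene spans from GENCODE.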

Additional observations from a re-analysis of the deposited data

Results flagged for a closer look

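Of 256 groups of 4 mice (a member in a sum of barcodes and a genotype), 15 held a mouse far from the other 3 by Dixon's ratio at the 5% level, where chance gives about 1 in 20. Values are in CPM, and no cause was tested. Over all kept barcodes the first wt/wt mouse stood at 53.9 for Acaca (others 69.5 to 72.5), 10.6 for Dhcr7 (7.27 to 7.76) and 21.4 for Lpin1 (14.5 to 15.2). The fourth wt/wt mouse stood at 40.2 for Acss2 (28.5 to 29.7) and the third mut/mut mouse at 2.92 for Ebp (3.94 to 4.12). In mitochondria-rich barcodes the second mut/mut mouse stood at 114 for Hmgcs1 (139 to 141).

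In nucleus-like barcodes the fourth wt/wt mouse stood at 5.97 for Hsd17b7 (12.9 to 13.6) and the third at 45.5 for Srebf1 (27.1 to 27.6). In NSC/astrocyte-like nuclei the first wt/wt mouse stood at 38.4 for Fdps (11.8 to 15.3), and the third at 19.8 for Mvk (7.67 to 9.57) and 22.6 for Stard4 (9.87 to 11.5). In oligodendrocyte-like nuclei the fourth wt/wt mouse stood at 17.8 for Acat2 and 13.3 for Stard4 where the others had no UMI, the first at 0 for Ebp (12.7 to 15.1) and the third at 45.4 for Fasn (24.7 to 26.7).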

How the results depend on the processing

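Of the counts of called members under the alternatives, 283 stayed within 1.5 times their value and 10 moved. These include the counts between genotypes and for the interaction, which were 0 in the main fits. Without the 5% of barcodes with most UMIs, which left fewer genes to test, 7 members were called in NSC/astrocyte-like, 3 in oligodendrocyte-like, 6 in microglia-like and 3 in ependymal-like nuclei. With no filter 23 were called in microglia-like and 18 in ependymal-like nuclei. Leaving out 1 mouse gave 25 to 29 calls between compartments, 15 to 20 in NSC/astrocyte-like, 7 to 8 in oligodendrocyte-like, 11 to 15 in microglia-like, 8 to 12 in ependymal-like and 9 to 19 in choroid plexus-like nuclei (19 without mut/mut 4). Between genotypes it gave 0, apart from 0 to 1 in oligodendrocyte-like (Scd2, without wt/wt 2) and microglia-like nuclei (Scd2, without wt/wt 2 or mut/mut 2). Except for the fewer genes tested, the causes were not tested. Scaling by library size only or by RLE factors, the minimum of 5 barcodes and the interaction were chosen after seeing the data.

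Nothing says that mice of 1 number share a litter. Same-numbered mice had correlations of deviations of -0.119 to 0.0434 over all kept, -0.646 to 0.375 over nucleus-like and -0.117 to -0.0127 over mitochondria-rich barcodes, so the numbers were not taken to pair the mice, and with the replicate block 0 members were called in each of the 8 genotype comparisons. Single members that changed sign between genotypes had not been called. Over all kept barcodes, at 500 and 1000 genes, Scd1 stood at -0.30 and -0.25 and Scd2 at -0.26 and -0.26, and Hmgcs1 at 0.0395 at 200 and 0.23 at 1000 genes. In mitochondria-rich barcodes at the same limits of 500 and 1000 genes, Scd2 stood at -0.0853 and -0.84 and Scd1 at -0.11 and -0.52. Without the top 5% of UMIs, Msmo1 stood at 0.0781 in nucleus-like barcodes, and Acaca, Scd2 and Msmo1 at -0.0671, -0.55 and -0.0347 in NSC/astrocyte-like nuclei. With a mitochondrial share under 10%, Msmo1 stood at 0.13 in nucleus-like barcodes, Elovl6 at 0.15 in oligodendrocyte-like and Hmgcs1 at -0.0196 in choroid plexus-like nuclei. Elovl6 in oligodendrocyte-like nuclei also stood at 0.23 with the replicate block and 0.0252 at 1000 genes. In choroid plexus-like nuclei Pmvk stood at 0.0394 with DESeq2, 0.0358 with upper-quartile factors and 0.10 with the replicate block, and Hmgcs1 at -0.0511 by library size only. Leaving out 1 mouse gave -0.21 to 0.0746 for Hmgcs1 in all kept barcodes, -0.47 to 0.000905 for Acaca in oligodendrocyte-like nuclei, -0.22 to 0.22 for Elovl6 in oligodendrocyte-like nuclei, -0.11 to 0.68 for Scd2 in ependymal-like nuclei, -0.59 to 0.28 for Lpin1 in ependymal-like nuclei, -0.44 to 0.34 for Fdps in choroid plexus-like nuclei, -0.19 to 0.12 for Scd2 in choroid plexus-like nuclei, -0.17 to 0.28 for Hmgcs1 in choroid plexus-like nuclei and -0.20 to 0.29 for Pmvk in choroid plexus-like nuclei. Between compartments, by library size only, Insig2 stood at 1.08, Hsd17b7 at 0.76, Mvk at 0.16, Msmo1 at 0.73, Lss at 0.46, Acly at 0.89, Fdft1 at 0.68, Sqle at 0.41, Srebf2 at 0.62, Acat2 at 0.0175, Stard4 at 0.25 and Tm7sf2 at 0.0872. Of the other values followed for single members 2419 kept direction and side of the threshold, 93 lost and 3 gained a call. The 3 were for Scd2 between genotypes. These counts leave out members that were not called in the main class and compartment fits. Some of those were called under alternative settings. In choroid plexus-like nuclei Fdft1 was called in 7 of 19, Scd1 in 6 of 19 and Hmgcs1 in 4 of 19, and Acly in 0 of 19. Genotype fits in ependymal-like and microglia-like nuclei under 10% mitochondrial share, and in choroid plexus-like nuclei without the top 5%, could not be fitted.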

Other observations

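Classes with too few nuclei for a test per mouse were pooled over mice, with exact 95% Poisson intervals that cover counting error only. In the 68 endothelial-like nuclei Scd2 stood at 144.7 CPM (108 to 189.7), Stard4, a sterol carrier, at 89.0 (60.9 to 125.7) and Srebf2 at 77.9 (51.8 to 112.6). In the 82 inhibitory neuron or neuroblast-like nuclei Acaca stood at 264.8 (202 to 340.8), Scd2 at 172.1 (122.4 to 235.3) and Elovl6 at 92.7 (57.4 to 141.7). Acat2 lies 11.64 Mb from Tsc2 on chromosome 17.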
